A study of Mus musculus with 32 samples.

Results

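SOXE and nuclear factor I (NFI) proteins are 2 families of transcription factors that act when neural progenitors of the central nervous system turn from making neurons to making glia. The 7 genes described here were taken by symbol from the count tables: Sox8, Sox9 and Sox10 of the SOXE family and Nfia, Nfib, Nfic and Nfix of the NFI family, 7 of 26331 named genes. They were followed through 32 RNA libraries of embryonic mouse forebrain, each from 1 embryo, that differ in their labelled genotype at Kat6b or carry a Kat6b transgene; Kat6b encodes a histone lysine acetyltransferase of the MYST family. All 32 libraries came from dorsal telencephalon at embryonic day E12.5 or from cortex at E15.5.

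Wild-type embryos and embryos labelled as homozygous for loss of Kat6b were C57BL/6 mice, an inbred strain; each genotype had 3 libraries at E12.5 and, at E15.5, 5. Tg(Kat6b) embryos, which carry a transgene that raises Kat6b RNA, and wild-type controls of their own were FVBxBALB/c crosses, and each of these 4 groups had 4 libraries. Neither the kind of lost allele nor the promoter of the transgene is given in the sources used here. All C57BL/6 embryos were sequenced in batch 2 and all FVBxBALB/c embryos in batch 1, so background and batch cannot be told apart. In C57BL/6 the replicate number follows the litter in the labels (at E12.5 replicates 3 and 4 came from 1 litter), so those libraries are separate embryos but not all from separate litters.

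In background terms, SOX9 appears first, in progenitors of the neuroepithelium, where it keeps stem cell properties and prepares the switch to glia. SOX9 then induces NFIA, and both proteins together switch on early glial genes. NFIA, NFIB and NFIX act in cortical radial glia, the progenitors of the cortex, where they favour differentiation, and NFIA and NFIB are also made by young cortical neurons. SOX8 and SOX10 take part in the oligodendrocyte lineage, and SOX10 is also a core factor of the neural crest and of peripheral glia. NFIC is best known from tooth root formation. NFI proteins bind DNA as dimers at a palindrome (TTGGC and GCCAA with 5 bases between them) or at a single TTGGC, and SOX proteins bend DNA at short motifs such as ACAAT and ACAAAG.

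On mouse build GRCm38 the genes lie apart except for a pair. Sox8 (gene ID 20681) lies on chromosome 17 at 25565893 to 25570686, Sox9 (20682) on chromosome 11 at 112782210 to 112787757 and Sox10 (20665) on chromosome 15 at 79154913 to 79164490. Nfia (18027) lies on chromosome 4 at 97578066 to 98118876 and Nfib (18028) on the same chromosome at 82290173 to 82506751. Nfic (18029) lies on chromosome 10 at 81396191 to 81431919 and Nfix (18032) on chromosome 8 at 84704712 to 84801238. All 7 are protein-coding. The gene lengths in the count tables run from 2713 bases for Sox10 to 9643 for Nfia.

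The 250 bases before an annotated start are shown for 3 genes whose RNA rose with age in every group. Of the 7 genes, 4 (Sox8, Nfia, Nfic and Nfix) matched the RefSeq promoter table of build GRCm38, and Sox9, Sox10 and Nfib did not. The strand is that of the gene, 5′ to 3′, and capitals mark a match to TTGGC or ACAAT on either strand.
Sox8, chr17:25570687-25570936, minus strand: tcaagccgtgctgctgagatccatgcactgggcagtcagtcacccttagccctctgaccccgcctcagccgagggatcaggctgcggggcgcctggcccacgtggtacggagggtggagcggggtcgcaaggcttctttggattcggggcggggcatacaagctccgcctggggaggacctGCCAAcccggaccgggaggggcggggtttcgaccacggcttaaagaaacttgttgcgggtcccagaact
Nfia, chr4:97581693-97581942, plus strand: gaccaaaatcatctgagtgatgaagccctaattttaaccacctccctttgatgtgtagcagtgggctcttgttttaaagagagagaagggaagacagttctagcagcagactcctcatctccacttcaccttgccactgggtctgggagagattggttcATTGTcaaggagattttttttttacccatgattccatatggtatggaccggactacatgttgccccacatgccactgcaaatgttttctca
Nfix, most upstream of its 4 windows in the table, chr8:84780083-84780332, minus strand: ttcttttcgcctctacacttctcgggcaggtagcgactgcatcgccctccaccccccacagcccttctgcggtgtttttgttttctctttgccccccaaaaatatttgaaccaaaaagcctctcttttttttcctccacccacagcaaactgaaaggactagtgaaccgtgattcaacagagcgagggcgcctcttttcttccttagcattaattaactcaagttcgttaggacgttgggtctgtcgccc
The Sox8 window held 1 match to TTGGC, on the opposite strand, 69 bases before the start. The Nfia window held 1 match to ACAAT, also on the opposite strand, 91 bases before the start. The Nfix window shown held neither, and none of the 3 held ACAAAG or the full NFI palindrome. Of the 3 other Nfix windows in the table, 2 held TTGGC, 1 held ACAAT, 1 held ACAAAG and 0 held the palindrome. Across 32851 promoter windows of this length, 41.5% held TTGGC, 27.7% ACAAT, 16.5% ACAAAG and 0.0365% the palindrome, counting both strands. The Nfia and Nfix windows lie inside the annotated span of their genes, which also have starts further upstream. A match to such short letters is a description of the window and not a binding site.

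Levels are given as CPM, counts scaled to the effective size of each library, and comparisons between genes as RPKM, which also divides by gene length. Total counts ran from 10424813 to 49699656 per library. Every one of the 7 genes passed the filter on low counts in every fit. Kat6b itself rose in Tg(Kat6b) tissue by 1.63 on the log2 scale at E12.5 and 1.86 at E15.5 (edgeR, adjusted p = 1.03e-05 and 1.64e-06). In the labelled knockout its whole-gene level differed by -0.16 and 0.04 and was not called, so the counts do not check that genotype and its libraries are called the labelled knockout. The 10 markers of caudal brain summed to between 3.29 and 110.5 CPM per library and the 10 markers of cortical projection neurons to at least 2716 CPM. The oligodendrocyte precursor list, 12 genes, summed to 89.9 to 209 CPM and the astrocyte list, 12 genes, to 708 to 1001 CPM. These lists share genes with others (Pdgfra with meninges, Slc1a3 with radial glia), so the sums do not measure these cell types alone. Ribosomal Rn45s took 17.8% of counts in labelled knockout E15.5 replicate 3 and at most 0.667% elsewhere.

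**Figure D1:**
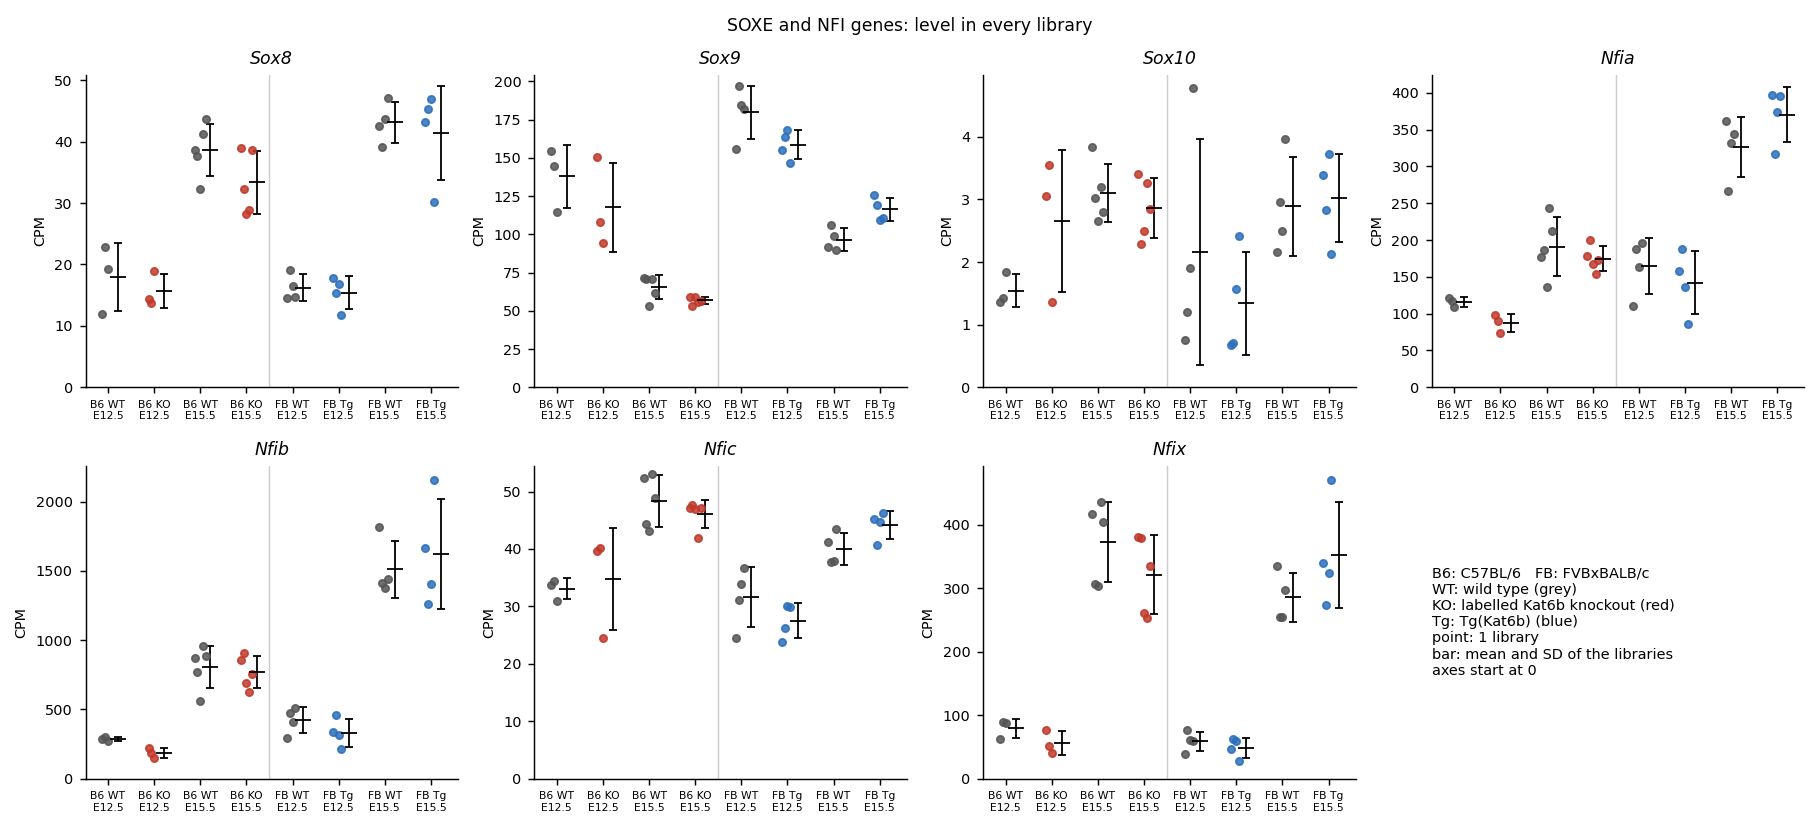
Level of each SOXE and NFI gene in every library, in CPM on a linear axis that starts at 0, for the 8 groups. Each point is 1 library and the bars give the mean and SD. The 4 NFI genes and Sox8 stand higher at E15.5 than at E12.5, Sox9 stands lower, and Sox10 stays under 5 CPM.

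Most members of both families changed between E12.5 and E15.5, and in opposite ways within SOXE. Nfix, Nfib, Nfia, Nfic and Sox8 were higher at E15.5 in each of the 4 genotype and background groups, and Sox9 was lower in each. Sox10 passed in C57BL/6 wild type, and in Tg(Kat6b) its rise passed under some alternatives given with its values. In C57BL/6 wild type 7 of 7 members passed, where 56.8% of all genes tested did. In the labelled knockout, FVBxBALB/c wild type and Tg(Kat6b) 6 of 7 passed, where 56.4%, 50.1% and 46.3% of all genes did. Since about every other gene passed, the count is not particular to these families and the sizes below carry the description. In size, the change of Nfix was at least as large as that of 96.0% to 97.8% of all genes tested. For Nfic this share was 43.6% to 71.3%, and for Sox10 21.8% to 87.5%. Age and dissection (dorsal telencephalon, then cortex) changed together and cannot be told apart. In bulk tissue a change in the number of cells of a type and in RNA per cell cannot be told apart either. Markers of other cell types moved with age too: of 10 projection neuron markers 10 rose in each group, of 11 meningeal and mesenchymal markers 7 to 10 fell (median -3.29 to -3.70) and of 9 hem and choroid plexus markers 7 to 9 fell. Of 10 radial glia markers 7 fell in each group (median -0.61 to -0.91) and 2 to 3 rose. Their part in the values of the members was not tested.

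By direction, 6 members rose and 1 fell in C57BL/6 wild type, where 28.6% of all genes rose and 28.2% fell. In each of the other groups 5 rose and 1 fell. Of all genes, 29.4% rose and 27% fell in the labelled knockout, 25.1% rose and 25.1% fell in FVBxBALB/c wild type, and 23.8% rose and 22.5% fell in Tg(Kat6b).

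Sox9, the family member of the progenitors, was the most abundant SOXE RNA and the one that fell. In C57BL/6 wild type it stood at 154, 145 and 115 CPM at E12.5 and at 71.6, 70.7, 53.4, 70.7 and 61.3 CPM at E15.5. In the labelled knockout it stood at 150.2, 108 and 94.6 CPM and later at 58.9, 53.3, 59.3, 56.0 and 56.6 CPM. In both genotypes every E15.5 library lay below every E12.5 library. FVBxBALB/c wild type had 155, 197, 185 and 182 CPM at E12.5 and 91.8, 106, 99.1 and 89.5 CPM at E15.5. Tg(Kat6b) tissue had 155, 163, 168 and 147 CPM and 125, 119, 109.6 and 111 CPM. The ages did not overlap here either, but the fall in Tg(Kat6b) was the smallest of the 4. On the log2 scale Sox9 fell by 1.06 in C57BL/6 wild type (SE 0.130, adjusted p = 4.11e-06), by 1.01 in the labelled knockout (SE 0.131, adjusted p = 5.64e-06), by 0.90 in FVBxBALB/c wild type (SE 0.0828, adjusted p = 2.58e-07) and by 0.44 in Tg(Kat6b) (SE 0.0823, adjusted p = 0.000326), all by edgeR. Ordered by mean, the 8 groups ran from FVBxBALB/c wild type E12.5 (179.7 ± 17.5 CPM, SD, n = 4) through Tg(Kat6b) E12.5 (158), C57BL/6 wild type E12.5 (138), labelled knockout E12.5 (118), Tg(Kat6b) E15.5 (116), FVBxBALB/c wild type E15.5 (96.6) and C57BL/6 wild type E15.5 (65.6) to labelled knockout E15.5 (56.8 ± 2.44, n = 5). Neighbours in that order overlapped, except for a gap on each side of FVBxBALB/c wild type E15.5. At E15.5, 1.35% of all genes lay wholly higher in Tg(Kat6b) than in that group. For that group over C57BL/6 wild type, which also differs in background and batch, the share was 12.4%.

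Sox8, a partner of SOX9 and SOX10 in oligodendrocyte development, moved the other way. Its E12.5 libraries ranged from 11.8 to 22.8 CPM over the 4 groups and its E15.5 libraries from 28.2 to 47.1 CPM, with no overlap of ages in any group. The rise was 1.12 in C57BL/6 wild type, 1.13 in the labelled knockout, 1.41 in FVBxBALB/c wild type and 1.42 in Tg(Kat6b) on the log2 scale (edgeR, adjusted p at most 6.75e-05). Within each age the groups overlapped, except that at E15.5 every labelled knockout library (at most 38.9 CPM) lay below every FVBxBALB/c wild-type library (at least 39.2 CPM). Those groups differ in genotype label, background and batch at once, and the share of all genes that separate so was not counted. The group means lay between 15.4 and 18.0 CPM at E12.5 and between 33.4 and 43.1 CPM at E15.5. Exons of Sox8 share 329 bases with 2810468N07Rik on the other strand in GENCODE, and the library kit does not mark strand. Part of this signal may therefore not be assignable, but the annotation and settings used for counting are not given. The same limit holds for fewer bases in other members. Nfix shares 137 bases with G430095P16Rik and 4 with Lyl1, Nfic 72 with Gm16104 and Nfia 4 with E130114P18Rik.

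Sox10, the neural crest and oligodendrocyte factor, was near the lower end of the range throughout, from 0.668 to 4.77 CPM. At E12.5 it stood at 1.35, 1.42 and 1.84 CPM in C57BL/6 wild type, 3.05, 3.54 and 1.37 CPM in the labelled knockout, 0.757, 1.21, 1.90 and 4.77 CPM in FVBxBALB/c wild type and 0.668, 0.71, 1.58 and 2.41 CPM in Tg(Kat6b). The E15.5 libraries lay closer together, at 3.84, 3.03, 2.66, 3.20 and 2.79 CPM in C57BL/6 wild type, 3.40, 2.28, 2.50, 3.27 and 2.84 CPM in the labelled knockout, 2.15, 2.95, 2.49 and 3.97 CPM in FVBxBALB/c wild type and 3.39, 2.84, 3.72 and 2.13 CPM in Tg(Kat6b). Replicate 4 of FVBxBALB/c wild type at E12.5 was the highest of all 32. Sox10 rose by 1.03 on the log2 scale in C57BL/6 wild type (SE 0.266, adjusted p = 0.00339, edgeR), with every E15.5 library above every E12.5 library. The changes in the labelled knockout (0.15 (SE 0.252, adjusted p = 0.627)), FVBxBALB/c wild type (0.37 (SE 0.486, adjusted p = 0.551)) and Tg(Kat6b) (1.20 (SE 0.502, adjusted p = 0.0613)) did not pass. In FVBxBALB/c wild type the change was 1.11 without E12.5 replicate 4 (adjusted p = 0.0361, edgeR), 0.12 without E12.5 replicate 1, 0.17 without E12.5 replicate 2 and 0.20 without E15.5 replicate 4. In Tg(Kat6b) it passed without E12.5 replicate 4 (adjusted p = 0.0209, edgeR), the library with the highest Sox10 of its group at E12.5. With only the compared groups (adjusted p = 0.0316, edgeR) and by DESeq2 (adjusted p = 0.0402) it passed too. A replicate block, which joins embryos of both ages by number alone, also gave a pass (1.42, adjusted p = 0.0102, edgeR). It did not pass with DESeq2 size factors, with no filter or without any other single library of Tg(Kat6b). All neighbours in the order of the 8 group means overlapped.

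Nfix, which acts in radial glia and in the timing of progenitor differentiation, rose most. In C57BL/6 wild type it went from 61.7, 89.3 and 86.9 CPM to 417, 306, 304, 435 and 404 CPM, and in the labelled knockout from 77.0, 51.8 and 40.2 CPM to 380.0, 379, 262, 252 and 334 CPM. In FVBxBALB/c wild type it went from 38.9, 76.2, 60.2 and 59.2 CPM to 335, 255, 255 and 298 CPM, and in Tg(Kat6b) from 46.0, 62.2, 59.2 and 27.3 CPM to 340.3, 274, 324 and 470.5 CPM. The highest E12.5 library (89.3 CPM) lay far below the lowest E15.5 library (252 CPM), while the 4 groups of 1 age overlapped their neighbours. The share of all genes that separate so by age across all groups was not counted. These are rises of 4.76-fold, 5.86-fold, 4.86-fold and 7.25-fold in the same order (log2 2.25, 2.55, 2.28 and 2.86, each SE at most 0.252, edgeR adjusted p at most 1.48e-06).

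Nfib, the most abundant NFI gene in most groups and needed for the glia and long axons of the cortex, rose next. C57BL/6 wild type had 283, 299.9 and 270.2 CPM at E12.5 and 867, 769.9, 563, 957 and 883 CPM at E15.5. The labelled knockout had 220.4, 186 and 150.1 CPM and 859, 910.3, 687, 629 and 758 CPM. Ages did not overlap, and at E12.5 the labelled knockout had the lowest mean of all 8 groups. FVBxBALB/c wild type had 296, 470.4, 406 and 509.7 CPM at E12.5 and 1815, 1414, 1375 and 1440.1 CPM at E15.5. Tg(Kat6b) had 337, 458, 312 and 216 CPM and 1667, 1258, 1408 and 2158 CPM. The log2 rise was 1.53 (SE 0.168, adjusted p = 1.47e-06) in C57BL/6 wild type, 2.09 (SE 0.173, adjusted p = 6.48e-08) in the labelled knockout, 1.84 (SE 0.222, adjusted p = 4.51e-06) in FVBxBALB/c wild type and 2.30 (SE 0.225, adjusted p = 7.60e-07) in Tg(Kat6b), by edgeR. By mean the order was Tg(Kat6b) E15.5 (1623 CPM), FVBxBALB/c wild type E15.5 (1511), C57BL/6 wild type E15.5 (808), labelled knockout E15.5 (769), FVBxBALB/c wild type E12.5 (420.5), Tg(Kat6b) E12.5 (331), C57BL/6 wild type E12.5 (284) and labelled knockout E12.5 (185). Gaps separated the FVBxBALB/c from the C57BL/6 groups at E15.5, the ages, and labelled knockout E12.5 from C57BL/6 wild type E12.5, while the other neighbours overlapped. The gaps at E15.5 and between the ages in this order also cross background and batch. At E15.5, 12.4% of all genes lay wholly higher in FVBxBALB/c than in C57BL/6 wild type. At E12.5, 3.91% lay wholly lower in the labelled knockout than in its wild type. For the gap between the ages in this order the share was not counted. Labelled knockout E12.5 also overlapped Tg(Kat6b) E12.5, whose replicate 4 stood at 216 CPM.

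Nfia, the partner of SOX9 at the start of gliogenesis, followed the same course at lower levels. It went from 121, 118 and 109 CPM to 177, 187, 137, 243 and 213 CPM in C57BL/6 wild type and from 97.5, 90.3 and 73.5 CPM to 178, 200.2, 168, 154 and 174 CPM in the labelled knockout. In FVBxBALB/c wild type it went from 111, 188, 163 and 196 CPM to 361, 267, 332 and 344 CPM, and in Tg(Kat6b) from 157, 188, 137 and 86.0 CPM to 397, 316, 374 and 396 CPM. No age pair overlapped within a group. The log2 rise was 0.74, 1.04, 0.98 and 1.39 in that order (edgeR, adjusted p at most 0.000741). In the order of group means only FVBxBALB/c wild type E15.5 (326 ± 41.0 CPM, SD, n = 4) against C57BL/6 wild type E15.5 (191 ± 39.9, n = 5), and C57BL/6 wild type E12.5 (116 ± 6.50, n = 3) against labelled knockout E12.5 (87.1 ± 12.3, n = 3), were neighbours without overlap. Such separations in the same direction held for 12.4% and 3.91% of all genes, and the first also crosses background and batch.

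Nfic, the least abundant NFI gene, had the smallest rise of the 4 NFI genes in each group. Its libraries ran from 23.7 to 40.1 CPM at E12.5 and from 37.7 to 53.0 CPM at E15.5, and all neighbouring group means overlapped. The log2 rise was 0.56 in C57BL/6 wild type, 0.45 in the labelled knockout, 0.33 in FVBxBALB/c wild type (SE 0.114, adjusted p = 0.0224, edgeR) and 0.69 in Tg(Kat6b). The call in FVBxBALB/c wild type was lost without its E12.5 replicate 1 (adjusted p = 0.0681), without its E15.5 replicate 4 (adjusted p = 0.0598) and with only the compared groups (adjusted p = 0.0562, all by edgeR). In the labelled knockout the rise was 0.25 without E12.5 replicate 4.

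Counted by groups whose libraries do not overlap between ages, 7 of 7 members separated in C57BL/6 wild type (51.8% of all genes), 6 of 7 in the labelled knockout (54.6%), 6 of 7 in FVBxBALB/c wild type (43.1%) and 6 of 7 in Tg(Kat6b) (43.2%). Sox10 was the exception in the last 3 groups.

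**Figure D2:**
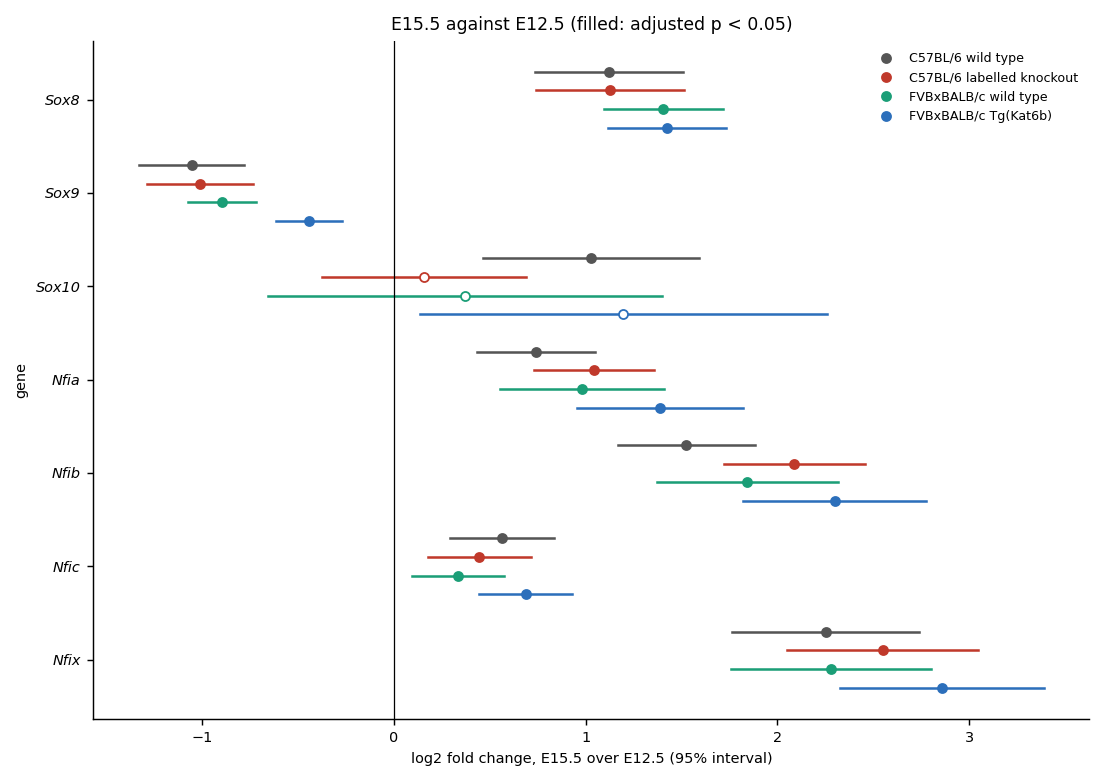
Log2 fold change of each gene from E12.5 to E15.5 (horizontal axis) with its 95% interval, for the 4 genotype and background groups; filled points passed at an adjusted p under 0.05. Nfix lies furthest right in every group, at 2.25 to 2.86, and Sox9 alone lies left of 0.

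Shares within each family also moved with age; they are described here without a test. As a share of the summed RPKM of the NFI genes in C57BL/6 wild type, Nfix took 28.9% at E12.5 and 44.5% at E15.5 (means of 3 and 5 libraries), while Nfia took 17.2% and 9.20%. Nfib stayed the largest or near it, at 46.4% and 42.7%. The NFI sum itself stood at 70.0 ± 4.41 RPKM (SD, n = 3) and 215 ± 36.8 RPKM (n = 5). In FVBxBALB/c wild type Nfib held 56.4% and 60.3%, and Nfix 17.6% and 25.6%. Within SOXE, Sox9 held 83.3% of the family RPKM at E12.5 and 52.9% at E15.5 in C57BL/6 wild type, and Sox8 15.2% and 43.2%. In FVBxBALB/c wild type Sox9 held 87.5% and 60.1%. Sox10 took at most 4.07% of the family in the mean of any group. Shares are not independent of each other, since they sum to the whole.

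**Figure D3:**
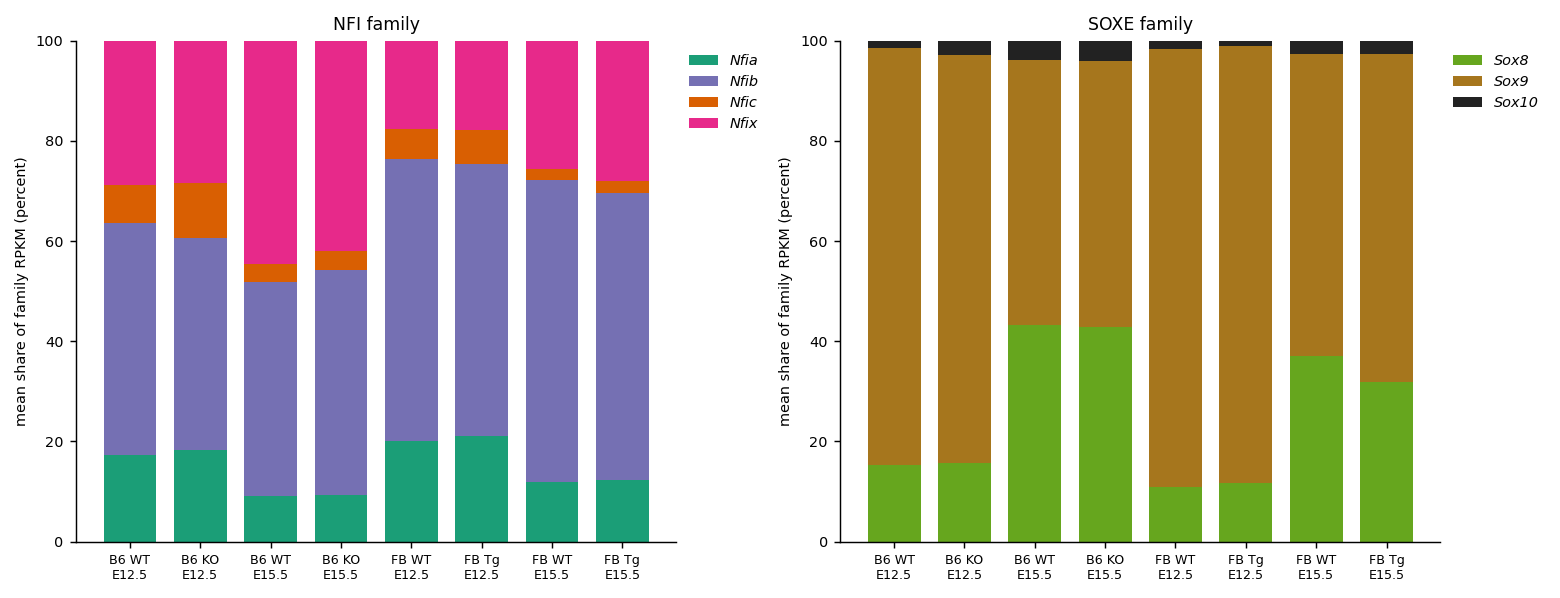
Mean share of the summed RPKM of the NFI family (left) and the SOXE family (right) held by each gene, in percent, for the 8 groups; each bar sums to the whole family. Nfix takes a larger share at E15.5 than at E12.5, and Sox8 takes over part of the share of Sox9.

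Whether the gliogenic factors differ with the C57BL/6 genotype label was tested separately at each age, labelled knockout against wild type. At E12.5 the intervals of Nfib, Nfia and Nfix lay below 0 and that of Sox10 above 0, but none passed the test across all genes. Of 7 members 0 were called, where 0.0062% of 16118 genes were, and 4 had an unadjusted p under 0.05, where 5.22% of all genes did. Of all genes 842 had such an unadjusted p, and DESeq2 called 0 members too. Nfib had a log2 fold change of -0.63 (SE 0.178, 95% interval -1.0 to -0.25, adjusted p = 0.881, edgeR). All 3 labelled knockout libraries, at 220.4, 186 and 150.1 CPM, lay below the wild-type libraries at 283, 299.9 and 270.2 CPM. Nfia stood at -0.42 (SE 0.159, interval -0.76 to -0.09), again with all 3 below all 3. Such a separation toward lower values held for these 2 members and for 3.91% of all genes.

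Nfix stood at -0.50 (SE 0.235, interval -1.01 to -0.00) with libraries that overlapped. Its value was -0.79 without labelled knockout replicate 1 and -0.31 without replicate 4. Sox10 stood at 0.78 (SE 0.288, interval 0.17 to 1.39), from 74, 104 and 42 counts against 40, 64 and 35, and at 0.51 without labelled knockout replicate 3. Sox8 (-0.21), Sox9 (-0.24) and Nfic (0.06) had intervals that include 0, of -0.63 to 0.21, -0.55 to 0.07 and -0.24 to 0.36. The members' median was -0.24, with 5 of 7 below 0, beside a median of -0.01 over all genes and 53.1% below 0.

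Other cell types varied among the same E12.5 libraries. The 11 meningeal and mesenchymal markers summed to 882, 2131 and 329 CPM in the labelled knockout and 1315, 415 and 561 CPM in wild type, and 11 of 11 had a log2 fold change above 0 (median 0.33, none called). In the labelled knockout the order of these sums is that of Sox10, and in wild type it is not. The 12 neural crest markers summed to 452 to 551 CPM in the labelled knockout and to 461 to 502 CPM in wild type. Of these 10 were tested and 8 of 10 lay above 0 (median 0.09). The list shares Fabp7 with that of radial glia, so its sum does not measure neural crest alone. All 9 ventral telencephalon markers lay above 0 as well (median 0.26). Of 7 tested caudal brain markers 6 lay below 0 (median -0.51). The 10 projection neuron markers were all below 0 (median -0.24), with sums of 2862 to 3769.6 CPM against 2831 to 3877 CPM. Their part in the values of Nfia, Nfib, Nfix and Sox10 was not tested.

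At E15.5, of 7 members 0 were called, where 0% of all genes were, and 0 had an unadjusted p under 0.05, where 2.83% of all genes did. DESeq2 called 0 members as well. All 7 log2 fold changes were below 0, between -0.21 for Nfix and -0.06 for Nfic, with a median of -0.12 against 0.01 over all genes, of which 47% lay below 0. In the same comparison 11 of 11 meningeal markers (median 0.58) and 9 of 9 hem and choroid plexus markers (median 0.50) lay above 0, and 8 of 9 ventral telencephalon markers below 0 (median -0.19); none was called and their part in the members' values was not tested. Nfib, at 859, 910.3, 687, 629 and 758 CPM against 867, 769.9, 563, 957 and 883 CPM, overlapped throughout and had a fold change of -0.06 (interval -0.35 to 0.23). Without labelled knockout replicates 3 and 4, whose meningeal sums were 205 and 204 CPM, Nfib stood at 0.06. Those libraries also held the lowest Nfib values of the labelled knockout, so leaving them out had to raise its mean. Their caudal brain sums, 31.8 and 31.2 CPM, were the highest of the group too, and Rn45s took 17.8% of counts in replicate 3. The part of each was not tested. Wild-type replicate 3, with the highest meningeal sum (126 CPM) and the lowest Nfib (563 CPM) of its group, was kept in that fit. Sox9 libraries were between 53.3 and 59.3 CPM in the labelled knockout and between 53.4 and 71.6 CPM in wild type, a difference of -0.20 (SE 0.117, interval -0.44 to 0.05). The intervals of the 7 members allow falls of at most 0.59 (Nfix) and rises of at most 0.38 (Sox10) on the log2 scale.

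Whether the labelled knockout effect itself differed between the ages was tested by an interaction term. None of the 7 members passed, nor did any gene (0%), by edgeR; DESeq2 passed 0 members and 1 gene. At an unadjusted p under 0.05 there were 2 members, Nfib (difference 0.56, interval 0.09 to 1.04) and Sox10 (-0.87, interval -1.64 to -0.11), and 2.72% of all genes.

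Gain of Kat6b was compared with wild type of the same mixed background. At E12.5 all 7 members had log2 fold changes below 0 and none passed. Of 7 members 0 were called, where 0.0129% of 15556 genes were, and 1 had an unadjusted p under 0.05 (Sox9), where 6.68% of all genes did; DESeq2 called 0 members. Sox9 stood at -0.18 (SE 0.0816, interval -0.35 to -0.01, adjusted p = 0.743, edgeR), with overlapping libraries. Nfib stood at -0.34 (interval -0.80 to 0.11), Nfix at -0.27 and Nfia at -0.21. Replicate 4 of Tg(Kat6b) held the lowest value of its group for Nfia, Nfib, Nfix, Sox8 and Sox9, and its meningeal sum of 1250.1 CPM was the highest of its group (231 to 488 CPM in the other 3). Without it Nfib was at -0.19, and without Tg(Kat6b) replicate 2 at -0.55. Sox10 stood at -0.75 (interval -1.78 to 0.28), at -1.19 without Tg(Kat6b) replicate 4 and at -0.02 without wild-type replicate 4, whose meningeal sum of 1914 CPM was also the highest of its group. In that wild-type library Nfia (196 CPM) and Nfib (509.7 CPM) were the highest of their group, not the lowest. Of the meningeal markers 9 of 11 lay below 0 (median -0.60), of the neural crest markers 6 of 8 (median -0.33), and of the ventral telencephalon markers 8 of 9 above 0 (median 0.22); their part was not tested. The members' median was -0.21, against -0.01 over all genes.

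At E15.5 Sox9 was the member set apart from wild type. It stood at 125, 119, 109.6 and 111 CPM in Tg(Kat6b) and 91.8, 106, 99.1 and 89.5 CPM in wild type, so that 4 of 4 transgenic libraries lay above 4 of 4 wild-type libraries, as for 1.35% of all genes. The log2 difference was 0.27 (SE 0.0829, interval 0.10 to 0.45), rank 23 of 15556 by p, but the edgeR adjusted p was 1.00. Leaving out each library in turn gave 0.23 to 0.32. Of 7 members 0 were called, where 0.0129% of all genes were, and 1 had an unadjusted p under 0.05, where 2.22% of all genes did; DESeq2 called 0 members. Nfix (0.31), Nfia (0.19), Nfic (0.15), Nfib (0.11), Sox10 (0.08) and Sox8 (-0.05) had intervals that include 0 and overlapping libraries. Nfix was at 0.13 without Tg(Kat6b) replicate 4, its highest library at 470.5 CPM.

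The change of the Tg(Kat6b) effect between the ages was above 0 for 7 of 7 members, and 0 passed the interaction test, where 0% of all genes did; DESeq2 passed 0 members and 1 gene. At an unadjusted p under 0.05 there were 2 members, Sox9 (difference 0.45, SE 0.116, interval 0.21 to 0.70, edgeR adjusted p = 1.00) and Nfic (0.35, interval 0.01 to 0.70), and 4.04% of all genes. This is the same contrast as the smaller fall of Sox9 with age in Tg(Kat6b), read the other way.

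**Figure D4:**
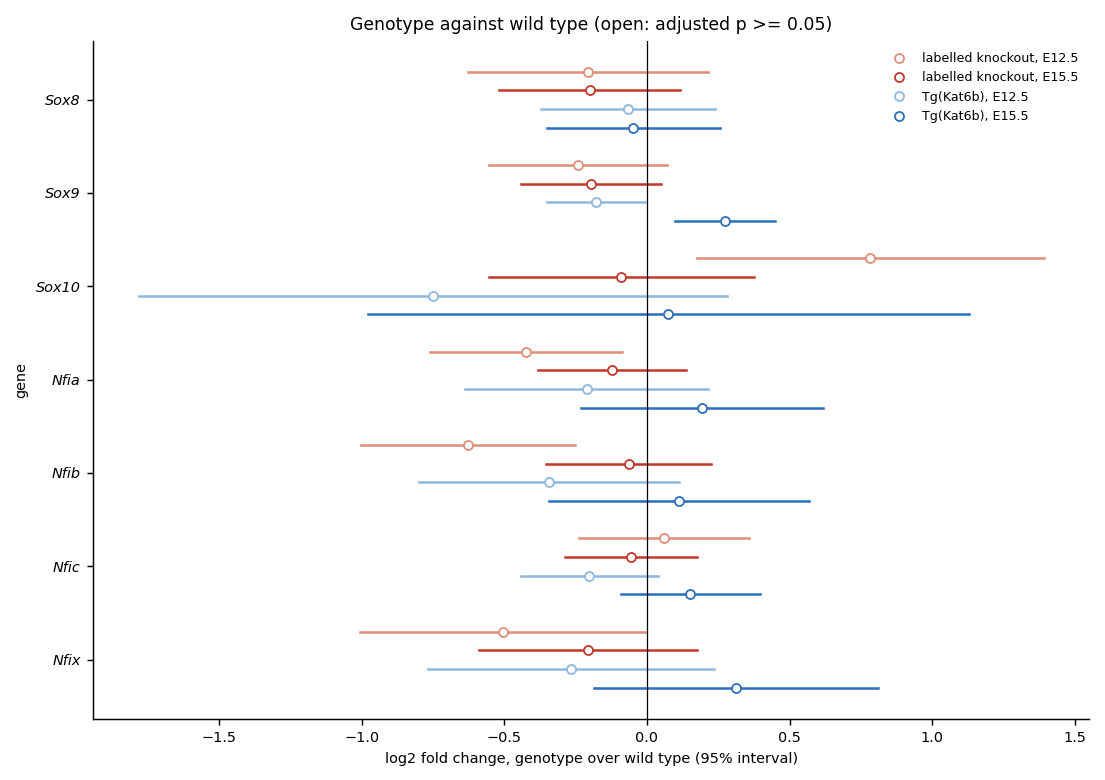
Log2 fold change of each gene in the labelled knockout and in Tg(Kat6b) over the wild type of the same background and age (horizontal axis) with its 95% interval; open points did not pass at an adjusted p of 0.05. All points are open, and the intervals of Nfib, Nfia, Nfix and Sox10 in the labelled knockout at E12.5 and of Sox9 in Tg(Kat6b) at both ages lie to one side of 0.

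The wild-type groups of both backgrounds were compared in the fit of all 32 libraries, where background and sequencing batch are the same split. At E12.5 Sox9 alone of the 7 passed, higher in FVBxBALB/c by 0.38 on the log2 scale (SE 0.120, adjusted p = 0.0338, edgeR), where 12.8% of all genes were called. Nfib (0.56, interval 0.13 to 1.0), Nfia (0.51, interval 0.10 to 0.91) and Sox10 (0.55, interval -0.34 to 1.43) had larger differences that did not pass. The Sox9 call was lost without C57BL/6 replicate 3 or 4 (edgeR adjusted p = 0.0663 and 0.260), without FVBxBALB/c replicate 2 or 3 (0.0969 and 0.0763) and in a fit of the compared groups alone (0.226). Without FVBxBALB/c replicate 1, Nfia and Nfib passed as well (edgeR adjusted p = 0.0292 and 0.0393). That library had the highest caudal brain sum of its group (110.5 CPM), and the part of this was not tested. At E15.5 Sox9 (0.56 (SE 0.106, adjusted p = 0.000276)), Nfia (0.77 (SE 0.171, adjusted p = 0.00148)) and Nfib (0.90 (SE 0.185, adjusted p = 0.000684)) were higher in FVBxBALB/c, where 25.3% of all genes were called. In these 3 the lowest FVBxBALB/c library stood above the highest C57BL/6 library, as in 12.4% of all genes. At E12.5 that separation held for Sox9 (6.7% of all genes). Nfix and Nfic had values on the other side of 0 at E15.5, -0.39 (interval -0.83 to 0.06) and -0.27 (interval -0.51 to -0.04), which did not pass, and Sox8 and Sox10 were at 0.16 and -0.09. In the fit of the compared groups alone both Nfix and Nfic passed (edgeR adjusted p = 0.0281 and 0.0205), so 5 of 7 were then called.

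Within groups, Nfia, Nfib and Nfix varied together from embryo to embryo. After the mean of each group was taken off, log2 CPM of Nfia and Nfib correlated over the 32 libraries with Pearson's r of 0.894 (Spearman's rho 0.855, and r = 0.855 without the 2 libraries farthest from the median). The value was 0.975 within E12.5 and 0.794 within E15.5, and 0.909 in C57BL/6 and 0.887 in FVBxBALB/c. Nfib and Nfix had r = 0.862 and Nfia and Nfix r = 0.767. Sox9 stood further off, at r = 0.447 with Nfib (0.602 at E12.5 and 0.226 at E15.5). Sox10 and Nfic had r = 0.705, with 0.807 within E12.5 and 0.199 within E15.5, while Sox8 had no r above 0.334 with any other member over the 32 libraries (within an age up to 0.521, with Sox10 at E15.5). These are descriptions of libraries that share depth and dissection, and carry no test.

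Genes most like each member in the same measure were named by rank. Nfix was closest to Tbr1 (r = 0.877), Inhbb (0.876) and Fezf2 (0.870), of which Tbr1 and Fezf2 encode transcription factors of deep-layer cortical neurons. Nfib was closest to Nfia, Tcf4 (0.890) and 1110032F04Rik (0.884), and Nfia to Nfib, Celsr1 (0.855) and 1110032F04Rik (0.826). Elfn1 (0.866) was among the 3 genes closest to Sox8. The 3 C57BL/6 wild-type E12.5 libraries, with Sox8 at 11.9, 22.8 and 19.2 CPM, had 238, 855 and 635 CPM of ventral telencephalon markers, in the same order. That order did not hold in the labelled knockout at E12.5. Sox8 stood there at 14.4, 13.8 and 18.9 CPM and these markers at 509.9, 587 and 950.3 CPM. In FVBxBALB/c wild type at E12.5 it did not hold either. Sox8 stood at 14.6, 19.2, 16.5 and 14.7 CPM and the markers at 731, 801, 718 and 451 CPM. In both groups the library highest in these markers was also highest in Sox8. At E15.5 Tg(Kat6b) replicate 4 was the lowest of its group in both, with 421 CPM of markers and Sox8 at 30.2 CPM. FVBxBALB/c wild-type replicate 2 at E15.5 was highest in the markers (1027 CPM) and lowest in Sox8 (39.2 CPM). The part of the dissection in the level of Sox8 was not tested. Sox10 was closest to Wdr1 (0.854), Foxl2 (0.837) and Rxra (0.833), Nfic to Gab1 (0.830), Tifab (0.800) and Loxl1 (0.793), and Sox9 to Pom121 (0.772), Alg8 (0.764) and Cand2 (0.759). Over the 8 group means, where age dominates and every r was at least 0.975, the closest genes were Gclc for Sox9, Tspan5 for Sox8, Tgfb3 for Sox10, Tcf4 for Nfia, Mtmr1 for Nfib, Tbc1d25 for Nfic and Sstr2 for Nfix.

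**Figure D5:**
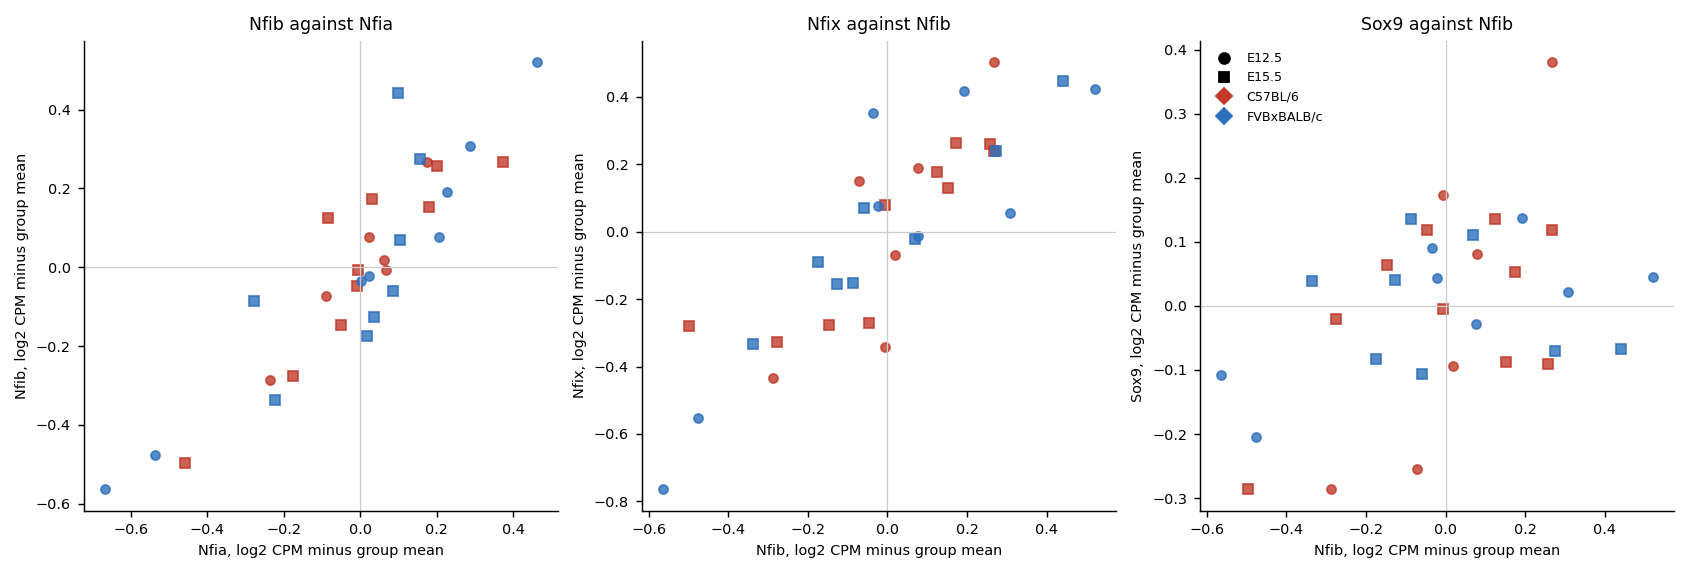
Deviation of each library from its group mean in log2 CPM, for Nfib against Nfia (left), Nfix against Nfib (middle) and Sox9 against Nfib (right); circles are E12.5, squares E15.5, red C57BL/6 and blue FVBxBALB/c. The left and middle clouds run along the diagonal (r = 0.894 and 0.862), the right one less so (r = 0.447).

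Genes on which SOX9 and NFIA act, and those that act on them, were read from lists chosen for their role. Of 12 reported targets of NFI or SOX9, 6 rose and 3 fell with age in C57BL/6 wild type, where 28.6% of all genes rose and 28.2% fell; the shares for the other groups stand with the direction counts of the members. Mmd2, a joint SOX9 and NFIA target, rose by 1.74 and by 2.02 in FVBxBALB/c wild type. Slc1a3, the glutamate transporter of radial glia and astrocytes, rose by 0.69, and Hes1, a Notch effector, fell by 1.29. The count was 6 and 2 in the labelled knockout, 6 and 4 in FVBxBALB/c wild type and 5 and 3 in Tg(Kat6b). Of 21 genes of gliogenic signalling, 3 rose and 12 fell in C57BL/6 wild type, among them the Notch ligand Dll1 (-1.20), Fgfr3 (-1.26) and the Notch effector Hes5 (-1.48). Of 14 partner factors 3 rose and 9 fell, with Sox5, a SOXD factor of deep-layer neurons, at 1.75 and Pax6, a factor of radial glia, at -0.999. Among 11 tested astrocyte markers 7 rose and 2 fell in each of the 4 groups, and Aldh1l1, a folate enzyme used to mark astrocytes, rose by 3.96 in C57BL/6 wild type.

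In the 4 genotype comparisons 0 genes of these 4 lists were called. At E12.5 the labelled knockout had 11 of 14 partner factors below 0 (median -0.19), led by Lhx2, a LIM homeobox factor of cortical identity, at -0.55 (SE 0.149, adjusted p = 0.881) by edgeR. At E15.5 13 of 14 were below 0 (median -0.18), with Lhx2 at -0.40 and Pax6 at -0.21. Targets of NFI and SOX9 had medians of -0.04 and 0.09 at these ages, with Hes1 at -0.28 and -0.28. In Tg(Kat6b) the partner factors had medians of 0.14 and 0.18 and the targets of -0.05 and 0.02, with Fabp7, the radial glial fatty acid binding protein, at 0.28 and -0.16, and the water channel gene Aqp4 at -0.91 at E15.5. Signalling genes had medians of -0.01 and -0.03 in the labelled knockout and -0.09 and 0.09 in Tg(Kat6b). The 11 astrocyte markers had 9 of 11 above 0 (median 0.28) in the labelled knockout at E15.5, including Gfap at 0.80, and 5 of 11 (median -0.01) at E12.5. In Tg(Kat6b) 10 of 11 lay below 0 at E12.5 (median -0.14) and 6 of 11 at E15.5 (median -0.00). None of them passed.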

How the data were processed

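RNA was extracted with RNeasy columns and a DNase step, made into libraries with TruSeq RNA v2, which does not mark strand, and read at both ends over 66 bp on a NextSeq500, per the labels' protocols. Base calls were made with bcl2fastq and reads counted with featureCounts on mm10, per the submitters' processing notes; no source used here gives versions, aligner, annotation or counting settings. The authors deposited raw counts, 1 file per library, without normalization. Of 27179 rows, 848 named no gene (at most 2.00% of counts) and were left out. Both C57BL/6 E15.5 replicate 5 files carry a column named for E12.5, and the labelled knockout one has a tissue label of dorsal telencephalon; both were analysed as E15.5, per their titles.

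Counts were filtered with filterByExpr (minimum count 10, minimum total 15), scaled by TMM and fitted with edgeR 4.0.16 (quasi-likelihood, robust; limma 3.58.1, R 4.3.3), 1 model per background with a mean per group (16118 and 15556 genes; 12 residual degrees of freedom) and 1 of all 32 libraries for the comparison of backgrounds (16399 genes). Tests were 2-sided and p-values adjusted by Benjamini-Hochberg over all genes; a gene was called at an adjusted p under 0.05. SE is the absolute log2 fold change over the square root of F, and intervals are at 95%. The scripts were tested on simulated data. Total counts of 10424813 to 49699656 set the precision, and PCR copies cannot be told from separate molecules. Replicates are separate embryos; where FVBxBALB/c litters are not given, p-values measure the spread between these samples. In C57BL/6 the number marks the litter in the labels; same-numbered embryos of both genotypes deviated with r of -0.31 to 0.35 at E12.5 and -0.07 to 0.39 at E15.5.

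Alternatives were DESeq2 1.42.0, its size factors, no filter, only the compared groups, a replicate block and leaving out each library. The members and lists were chosen with earlier results of these data known. Named from each list and comparison were up to 3 called genes with the smallest p, or 2 where none was called, and for likeness the 3 genes with the highest Pearson's r. A few genes that these rules name are not reported here.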

Additional observations from a re-analysis of the deposited data

Results flagged for a closer look

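In 42 sets of 4 or 5 libraries (each member in each such group), the gap between the most extreme library and its nearest neighbour was set against the range of the set by Dixon's test. It passed the 95% critical value in 2, where chance flags about 1 in 20, or 2.1 of 42. Nfib stood at 1815 CPM in FVBxBALB/c wild type E15.5 replicate 1, above the other 3 libraries of its group at 1375 to 1440.1 CPM. Nfic stood at 41.9 CPM in C57BL/6 labelled knockout E15.5 replicate 4, below the other 4 at 46.9 to 47.7 CPM. No cause of either was tested.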

How the results depend on the processing

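No member was called in any genotype comparison or interaction under any alternative run, and no alternative changed the direction of a called age effect. The calls of Sox10, Nfic and the background comparisons that depend on a library or setting stand beside those results. The cause of the changes below was not tested unless fewer samples make it.

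The number of members called between backgrounds at E12.5 was 1 and fell to 0 with only the compared groups (0 to 3 leaving out each library); at E15.5 it was 3 and 5 with only the compared groups. Sox10 in Tg(Kat6b) over age, not called in the main test, passed by DESeq2 (adjusted p = 0.0402), with a block by replicate number (0.0102, edgeR) and with only the compared groups (0.0316, edgeR). Nfic in FVBxBALB/c wild type over age did not pass with only the compared groups (0.0562, edgeR).

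Signs turned in the values below, none of them called. The change of the labelled knockout effect on Sox8 (0.00623) was -0.00259 with DESeq2 size factors, -0.00469 by DESeq2, -0.0290 with a replicate block within age and -0.0359 with the litter as a replicate block, an alternative chosen after seeing the data. Nfib in the labelled knockout at E15.5 was 0.0598 without replicates 3 and 4. Leaving out each library, values crossed 0 for Nfib in Tg(Kat6b) at E15.5 (-0.0638 to 0.217) and in the labelled knockout at E15.5 (-0.169 to 0.00214), Nfic in the labelled knockout at E12.5 (-0.0566 to 0.261), Sox8 in the labelled knockout at E12.5 (-0.431 to 0.0214) and in Tg(Kat6b) at E12.5 (-0.144 to 0.0321) and E15.5 (-0.122 to 0.0707), Sox10 in Tg(Kat6b) at E15.5 (-0.0478 to 0.249) and over age in the labelled knockout (-0.161 to 0.427), for the change of the genotype effect between ages on Sox8 (-0.221 to 0.232 in the labelled knockout, -0.0882 to 0.137 in Tg(Kat6b)) and Sox9 (-0.0910 to 0.250 in the labelled knockout), and between backgrounds for Nfic (-0.137 to 0.0363), Sox8 (-0.370 to 0.0733) and Sox10 (-0.187 to 0.794) at E12.5 and Sox10 at E15.5 (-0.264 to 0.0149).

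Over all genes, edgeR called 1 gene in the labelled knockout at E12.5, against 5 by DESeq2, 0 with a replicate block, 0 with the litter as a replicate block, 0 with only the compared groups and 0 to 2 leaving out each library. At E15.5 it called 0, against 7 by DESeq2, 2 with only the compared groups and 1 with the litter as a replicate block. For the change of the labelled knockout effect it called 0, against 1 by DESeq2. In Tg(Kat6b) it called 2 at E12.5 and 2 at E15.5, against 6 and 7 by DESeq2 and, at E15.5, 4 with only the compared groups; for the change of the effect 0 against 1. Between backgrounds at E12.5 it called 2095, against 203 with only the compared groups and 859 to 3323 leaving out each library. The replicate block changed no other call of a member than that of Sox10 over age. In FVBxBALB/c the litter is not given and the numbers share only a number; same-numbered libraries correlated at -0.08 to 0.52 at E12.5 and -0.10 to 0.04 at E15.5. Sox10, with 12 to 241 counts in FVBxBALB/c wild type at E12.5, is the member that depth limits most.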
